A study of Mus musculus with 2 samples.

Results

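The cells described here were taken as smooth muscle cells of the mouse hippocampus with few transcripts of Cnn1. This gene encodes the actin-binding protein calponin 1. The cells were chosen by their own transcripts. A cell barcode was taken if it had at least 300 genes, at most 10% mitochondrially encoded UMIs (unique molecular identifiers, 1 per captured RNA molecule), and UMIs of 3 or more of the 6 contractile genes Acta2, Myh11, Tagln, Myl9, Tpm2 and Mylk. It also had at most 1 of the 4 genes Cnn1, Pln, Ptgis and Nexn, 1 or more of the 4 marker genes Nrip2, Map3k7cl, Olfr558 and Sncg, and at most 1 of Cldn5, Pecam1, Mog, Aqp4 and C1qa, which mark other cell types. In all, 329 of 11605 cells met these conditions, and they are called Cnn1-low cells below. The rule also took in cells of mixed content, and 45 of the 329 lay in clusters led by genes of other cell types.

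The cells come from 2 single-cell RNA libraries, 1 of untreated 7-month-old Mr1+/+ mice and 1 of untreated 7-month-old Mr1-/- mice. The Mr1 protein, a relative of MHC class I molecules, displays microbial vitamin metabolites to a class of T cells. Dissociated hippocampal cells that excluded the dye DAPI and carried the DNA dye Draq5 were sorted and taken into a 10x Genomics 5' assay. Neither the number of mice per library nor the Mr1 allele is stated in the labels.

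The Mr1+/+ library held 6327 cells that met the limits on genes and mitochondrial UMIs, and the Mr1-/- library held 5278. The 6410 and 5347 deposited barcodes held 23244575 and 18349132 UMIs, and 44 barcodes occurred in both libraries, none of them a Cnn1-low cell in both. Over all these cells, Mr1 had 138 UMIs in 132 Mr1+/+ cells and 2 UMIs in 2 Mr1-/- cells. Each genotype is a single library, so no difference between genotypes has a replicate check, and genotype cannot be told apart from mouse, dissection, sort and library preparation. All intervals below are 95% intervals for counting error only.

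Smooth muscle cells wrap arteries and arterioles and set their diameter. Calcium and myosin light chain kinase (Mylk) drive the sliding of smooth muscle myosin (Myh11) along actin (Acta2), and calponin and caldesmon restrain it. Along the vessel tree of the brain, cells rich in contractile proteins cover arteries and arterioles, while pericytes, with little smooth muscle actin and with the potassium channel made of Kcnj8 and Abcc9, sit on capillaries. Contractile and pericyte-like cells, both defined by their genes, are used for comparison. Contractile cells met the same conditions on contractile and other-cell genes but had 2 or more of Cnn1, Pln, Ptgis and Nexn (327 Mr1+/+ and 276 Mr1-/- cells). Pericyte-like cells had 2 or more of Kcnj8, Abcc9, Vtn, Higd1b, Atp13a5 and P2ry14, at most 1 of Acta2, Myh11 and Tagln, and at most 1 of the genes of other cell types (493 and 552 cells).

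The libraries held 174 Mr1+/+ and 155 Mr1-/- Cnn1-low cells. They were 2.75% of Mr1+/+ cells (exact Clopper-Pearson interval 2.36 to 3.18%) and 2.94% of Mr1-/- cells (2.50 to 3.43%). The difference, Mr1-/- minus Mr1+/+, was 0.19 percentage points with a Newcombe interval of -0.42 to 0.80, which spans 0. Of all cells with 3 or more contractile genes and at most 1 gene of another cell type, they were 30.5% and 31.6%. Because the rule counts detected genes, the share moves with depth: with every cell thinned to 1500 UMIs before the rule, and shallower cells left out, 213 of 5386 Mr1+/+ cells (3.95%) and 232 of 4721 Mr1-/- cells (4.91%) met it. At that equal depth the difference was 0.96 points (0.16 to 1.78), an interval that leaves out 0. At full depth, as a share of all smooth muscle and pericyte-like cells, the difference was -1.51 points (-4.61 to 1.60). The size of the difference thus varied with depth, and its sign with the cells it was counted over. Thinning picks the cells anew, with 213 and 232 against 174 and 155 at full depth. Pericyte-like cells, part of the last denominator, were 7.79% of Mr1+/+ and 10.5% of Mr1-/- cells, a difference of 2.67 points (1.61 to 3.73). The median depth of the Cnn1-low cells was 2789 UMIs for Mr1+/+ and 3011 for Mr1-/-. The contractile cells were deeper, with 4246 and 4010, and the pericyte-like cells shallower, with 1958 and 1807 (medians in the same order).

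The levels of the rule's own genes describe what the rule picked and are no finding. Levels are in CPM, the UMIs of a gene summed over the cells of a kind and library divided by all UMIs of those cells and multiplied by 1000000. Acta2 stood at 12027 CPM in Mr1+/+ and 13848 in Mr1-/- Cnn1-low cells, against 25763 and 24423 in contractile cells and 12.96 and 8.49 in pericyte-like cells. Myh11, the smooth muscle myosin heavy chain, stood at 1528 and 1858 CPM, against 3240 and 3126 in contractile cells. Cnn1 had 6 UMIs in 4 Mr1+/+ cells and 1 UMI in 1 Mr1-/- cell, while contractile cells held 508 and 401 CPM. At an equal depth of 1500 UMIs per cell, 0.714% of Mr1+/+ and 0% of Mr1-/- Cnn1-low cells had a Cnn1 UMI, against 44.1% and 38.2% of contractile cells. The 0% is 0 of 136 cells, which allows a share of up to 2.21%.

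Genes given as markers of the cells were also present in contractile cells, of which the rule asked none of them. Nrip2, a nuclear receptor interacting protein (mm10 chromosome 6, 128399296 to 128416427), stood at 525 CPM in Mr1+/+ and 559 in Mr1-/- Cnn1-low cells and at 394 and 440 in contractile cells. Map3k7cl, a gene similar to the C-terminal part of the kinase Map3k7 (chromosome 16, 87553330 to 87595336), stood at 515 and 691 CPM and at 578 and 682 in contractile cells. Olfr558, an olfactory receptor gene (chromosome 7, 102702215 to 102712064), stood at 161 and 197 CPM and at 83.8 and 126 in contractile cells. Mustn1, a small nuclear protein of muscle (chromosome 14, 30879200 to 30881610), was no gene of the rule. It stood at 1374 and 1665 CPM, below the 2763 and 2637 of contractile cells and above the 82.4 and 108 of pericyte-like cells. Pericyte-like cells held 0.926 to 108 CPM of these 4 genes. Nrip2, Map3k7cl and Olfr558 are genes of the rule, so how far their levels differ between the kinds describes the choice. Oligodendrocytes, which should lack these genes, had an Olfr558 UMI in 1 of 1518 Mr1+/+ cells and in none of 992 Mr1-/- cells, at median depths of 4363 and 4215 UMIs, against 53 of 174 and 65 of 155 Cnn1-low cells, shares that the rule in part sets.

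**Figure D1:**
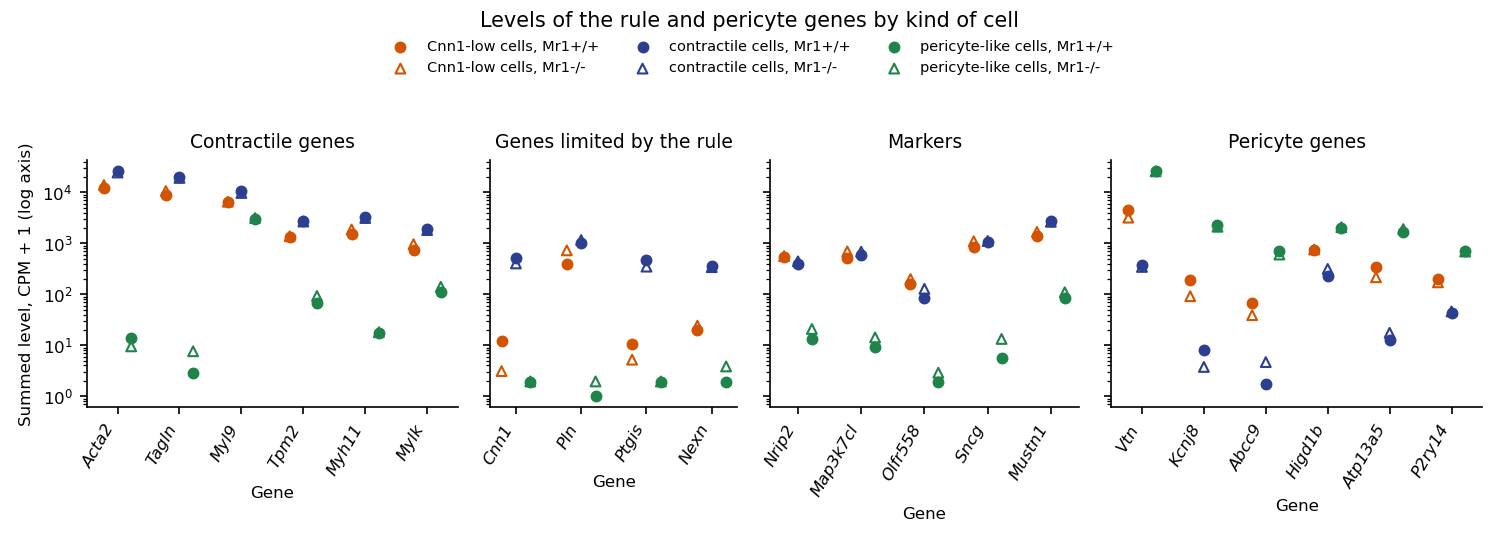
Summed level in CPM plus 1 on a log axis for the genes of the rule, Mustn1 and 6 pericyte genes, with filled circles for the Mr1+/+ and open triangles for the Mr1-/- library and colours for Cnn1-low, contractile and pericyte-like cells; each point is 1 library, with no error bar. The Cnn1-low cells lie between the other kinds for Acta2 (12027 and 13848 CPM) and for Vtn (4411 and 3179 CPM), and are near contractile cells for Map3k7cl.

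The 329 cells were not alike in the contractile genes that the rule counts. Of them, 198 had all 6 contractile genes and 38 had the required 3. Those 38 cells held 648 CPM of Acta2 and 10266 CPM of Vtn, the gene of the adhesion protein vitronectin, which in the brain marks pericytes. The 53 cells just outside that limit, with 2 contractile genes, held 527 and 5019 CPM. The 69 cells with 1 of the 4 marker genes held 4239 CPM of Acta2, and the 129 cells with none, which the rule leaves out, held 771. The 187 cells with 1 of Cnn1, Pln, Ptgis and Nexn held 16815 CPM of Acta2, and the 218 cells just outside, with 2, held 20222. Acta2 is one of the 6 genes counted, so these levels describe what each limit takes in. Within the Mr1+/+ library, single cells had 0 to 142 Acta2 UMIs (median 27) and 0 to 126 Vtn UMIs (median 4).

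Pericyte genes, which the rule did not use, were present in most of the cells. In all, 217 of the 329 cells (66.0%) had UMIs of 2 or more of the 6 pericyte genes, 110 Mr1+/+ and 107 Mr1-/- cells, and 52 had none. Vtn stood at 4411 and 3179 CPM, against 381 and 342 in contractile cells and 25750 and 25763 in pericyte-like cells. Kcnj8 stood at 189 and 90.3 CPM, against 7.11 and 2.75 in contractile cells and 2285 and 2105 in pericyte-like cells. Pericyte-like cells were chosen by these genes, so the levels there are in part set by that choice. At 1500 UMIs per cell, 69.3% of Mr1+/+ and 67.6% of Mr1-/- Cnn1-low cells had a Vtn UMI, against 23.8% and 23.3% of contractile cells. In oligodendrocytes, which should lack Vtn, the thinned shares were 0.744% and 0.719%.

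To see where the cells fall without the genes that chose them, all smooth muscle and pericyte-like cells were clustered with every gene of the rule and all 6 pericyte genes left out. Of 12 clusters, 2 held most Cnn1-low cells. Cluster 3, led by Ngb, Tmem100 and Cav1, held 146 of the 329 (44.4%), 72 Mr1+/+ and 74 Mr1-/- cells, beside 224 contractile and no pericyte-like cells. Cluster 5, led by Car4, Ackr3 and Ephx3, held 94 (28.6%), 47 in each library, beside 5 contractile and 96 pericyte-like cells. Cluster 4, led by Igfbp4, Sorbs2 and Csrp1, held 26 of them (7.90%) and 338 contractile cells. Cluster 6, led by Ptgds, Ccl19 and Gm2564 and with the fibroblast gene Dcn among its leading genes, held 12 (8 Mr1+/+ and 4 Mr1-/-). Clusters 7 to 12, whose leading genes were those of oligodendrocytes, microglia, endothelial cells, astrocytes, neurons and ependymal cells, held 45 (13.7%). The doublet caller Scrublet called 30 of the 329 cells, and 28 of those 30 lay in clusters 7 to 12. The cells of clusters 7 to 12 were kept, as the rule gives. Counts of genes past a fold limit without them are given beside the comparisons with contractile and pericyte-like cells and between genotypes. The cells of cluster 6 stayed in those counts. The clusters are called by number and given no cell type name.

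The genes left out of the clustering separated the 2 groups. In cluster 3 the Cnn1-low cells held 18230 CPM of Acta2 in the Mr1+/+ and 17791 in the Mr1-/- library, which is 70.8% and 72.8% of the level of contractile cells. In cluster 5 they held 6681 and 8010 CPM, 25.9% and 32.8% of that level. Vtn ran the other way, at 1663 and 927 CPM in cluster 3 and 11930 and 9257 CPM in cluster 5. Nrip2 was closer, at 756 and 673 CPM in cluster 3 and 578 and 533 in cluster 5, and so was Olfr558, at 203 and 199 and at 220 and 327. The cells of cluster 5 were shallower, with medians of 2387 and 2248 UMIs against 3136 and 3253 in cluster 3. They also had fewer mitochondrial UMIs, 2.03% and 2.15% against 4.55% and 5.27%.

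**Figure D2:**
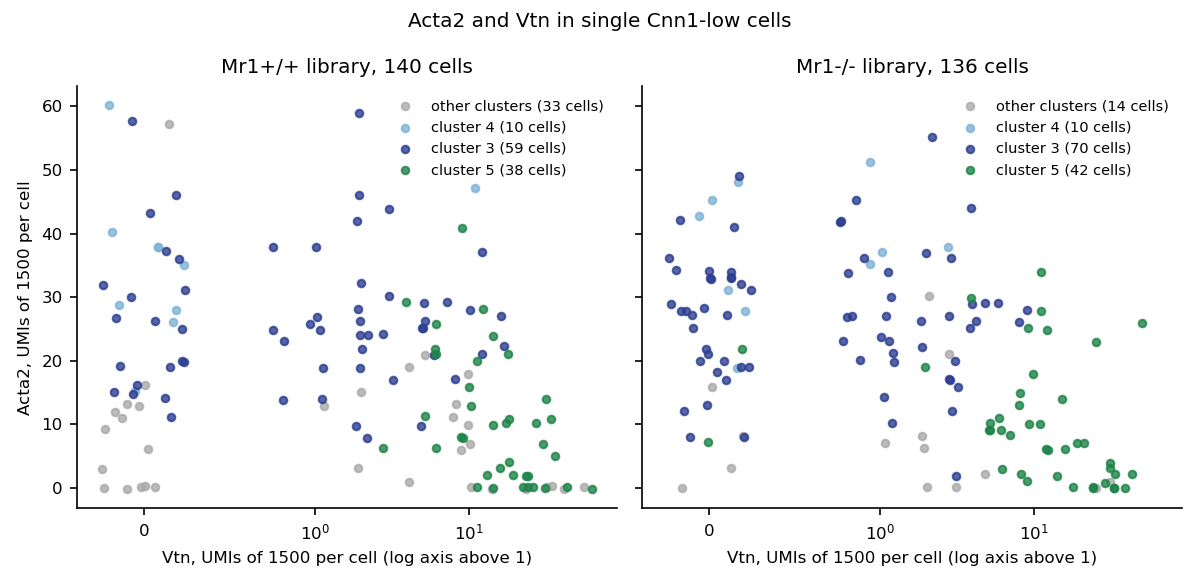
UMIs of Acta2 (vertical axis) and Vtn (horizontal axis, log above 1) in single Cnn1-low cells thinned to 1500 UMIs, 140 of the Mr1+/+ and 136 of the Mr1-/- library, coloured by cluster and moved by a small random amount so that equal counts can be seen. Cluster 3 lies at high Acta2 and low Vtn and cluster 5 at high Vtn, with cells in between in both libraries.

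The Cnn1-low cells of cluster 5 held the 6 pericyte genes at unlike fractions of their levels in pericyte-like cells. Pericyte-like cells were chosen by these 6 genes, so the fractions are in part set by that choice. The level in cluster 5 was 14.9% and 14.3% of that in pericyte-like cells for Kcnj8 and 21.3% and 20.1% for Abcc9, the 2 subunits of the potassium channel. It was 46.3% and 35.9% for Vtn, and 78.9% and 70.5% for Higd1b, a mitochondrial protein of the hypoxia-induced family. Atp13a5, an ATPase transporter, stood at 54.7% and 39.5%, and P2ry14, the receptor for UDP-glucose, at 66.6% and 75.2%. Car4, a membrane-bound carbonic anhydrase, stood at 3744 and 3803 CPM, above both pericyte-like cells (1741 and 2155) and contractile cells (66.1 and 43.9). Ano1, a calcium-activated chloride channel that depolarises smooth muscle, stood at 569 and 628 CPM, against 175 and 190 in pericyte-like cells and 95.9 and 124 in contractile cells. Casq2, which stores calcium in the sarcoplasmic reticulum, stood at 587 and 671 CPM, against 211 and 264 and against 39.1 and 47.6. Car4, Ano1 and Casq2 lead cluster 5, so their excess there is a description of the cluster.

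The same order showed when Cnn1-low cells were split by how many of the 6 pericyte genes they carried, each cell thinned to 1500 UMIs. The genes named here were chosen after their values were seen. Acta2 stood at 14733 CPM in Mr1+/+ cells with no pericyte gene (Poisson interval 13633 to 15899), at 18124 with 1, 13000 with 2 and 7170 with 3 or more. In Mr1-/- cells it stood at 17818, 18333, 13622 and 6054. It was thus lowest in the cells with the most pericyte genes in both libraries. Csrp1, a LIM protein of the actin cytoskeleton, went from 2044 to 354 CPM between the first and last group in Mr1+/+ cells and from 1970 to 198 in Mr1-/- cells. Ramp1, the subunit that makes the receptor for the dilator peptide CGRP, went from 533 to 40.8 CPM and from 455 to 36.0. Pln, which restrains the calcium pump of the sarcoplasmic reticulum and is a gene of the rule, went from 733 to 177 and from 1030 to 162.

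Other genes were lowest in the cells with no pericyte gene. Rgs5, a regulator of G-protein signalling known from pericytes and arteriolar smooth muscle, stood in Mr1+/+ cells at 956 CPM with none, 2725 with 2 and 2599 with 3 or more. In Mr1-/- cells it went from 879 to 2973 between the first and last group. Notch3, the receptor through which Notch signalling maintains mural cells, went from 556 to 1034 CPM and from 364 to 1171. Car4 went from 66.7 to 2748 CPM in Mr1+/+ cells, and in Mr1-/- cells from no UMI in 22 cells to 4090 CPM. Tbxa2r, the thromboxane receptor, went from 22.2 to 272 CPM and from no UMI to 378. Nrip2 had no such order, at 578 and 558 CPM in the first and last group of Mr1+/+ cells and 455 and 468 in those of Mr1-/- cells. Cald1, caldesmon, stood at 1756 and 2571 and at 2515 and 2252 CPM. Map3k7cl went from 578 to 490 CPM and from 758 to 577. Nrip2 and Map3k7cl are marker genes of the rule, of which every cell had to carry 1 or more, so their levels are in part set by the choice.

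**Figure D3:**
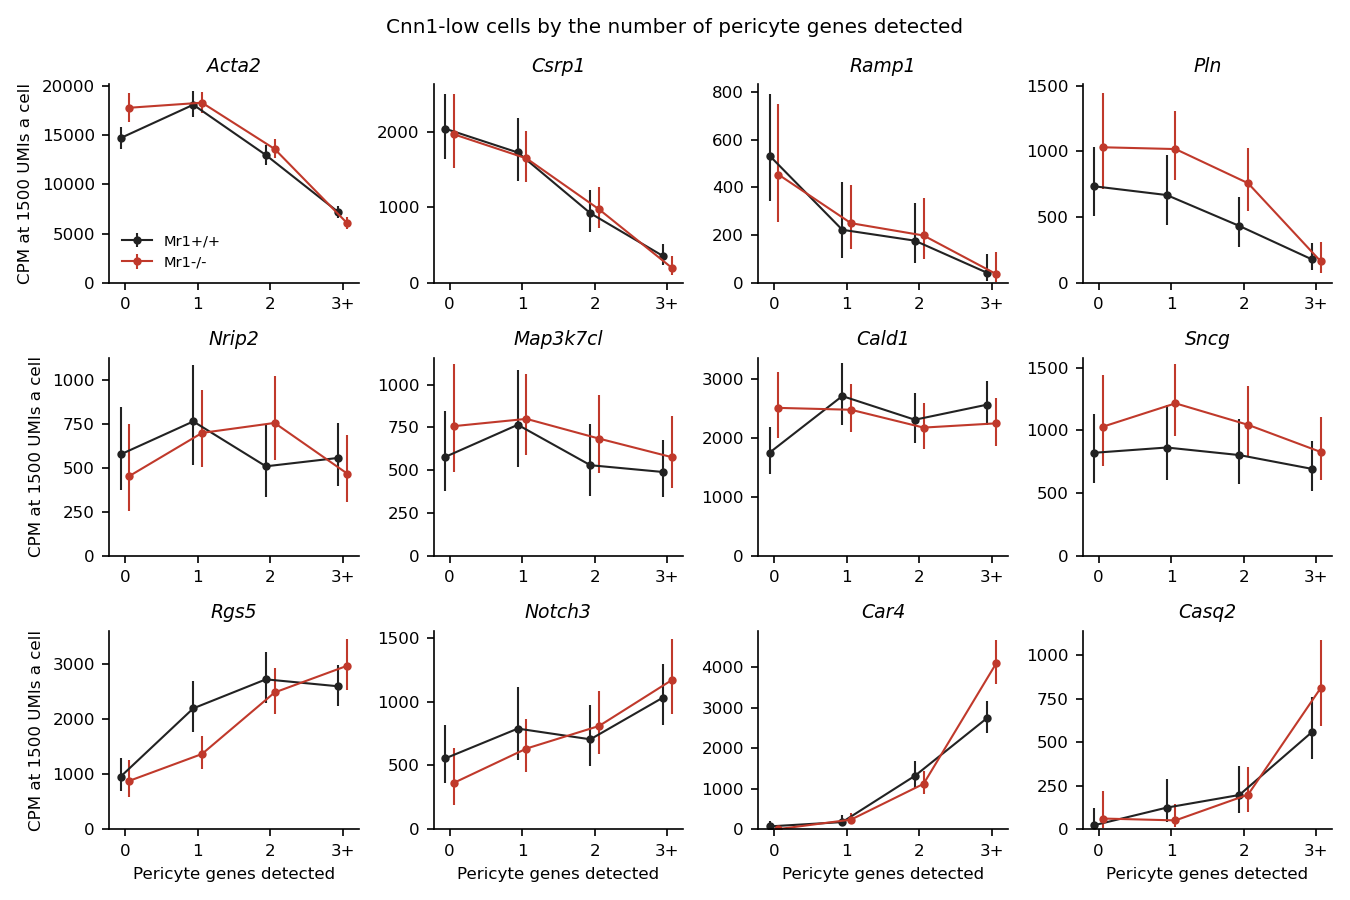
Level in CPM of 12 genes in Cnn1-low cells thinned to 1500 UMIs, by the number of the 6 pericyte genes detected (0, 1, 2 and 3 or more), black for the Mr1+/+ and red for the Mr1-/- library; bars are 95% Poisson intervals. Acta2, Csrp1, Ramp1 and Pln are lowest in the last group and Rgs5, Notch3, Car4 and Casq2 are highest there or within the intervals of the highest, while Nrip2 and Cald1 show no order that both libraries share.

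Against contractile cells, with the genes of the rules left out, 82 of 3207 measured genes (2.56%) were more than 2-fold higher in Cnn1-low cells in both libraries and 26 (0.811%) were more than 2-fold lower. Without the cells of clusters 7 to 12 these counts were 64 and 31. A gene was measured if it had 30 or more UMIs and a mean of 50 CPM, and 10 CPM were added to both levels before each ratio. The cells were chosen by transcripts that go with these, so the counts describe the choice. The largest excess was in Car4, at 1050 and 1071 CPM against 66.1 and 43.9 (log2 ratios 3.80 and 4.32). Slc6a20a, a proline transporter of pericytes, stood at 213 and 139 CPM against 3.55 and 13.7. Ptn, the growth factor pleiotrophin, stood at 956 and 664 CPM against 73.2 and 84.2. Art3, Ifitm1, Arhgdib, Plxdc2 and Lin7a were also among the 12 highest, and each was higher still in pericyte-like cells. Of the 9 measured genes of the pericyte list that no rule used, 6 were past 2-fold in both libraries: Ndufa4l2, Rgs5, Cox4i2, Pdgfrb, Slc6a20a and Art3. Pdgfrb, the receptor by which mural cells are recruited to vessels, stood at 502 and 504 CPM against 191 and 232. The list's median log2 ratio was 1.35, beside 0.10 over all 3207 genes.

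Of the contractile apparatus, 5 of 17 measured genes that no rule used were lower past 2-fold in both libraries and none was higher. Over all 3207 measured genes, 0.811% were lower past that limit. The 5 lower genes were Smtn, Synpo2, Csrp1, Pdlim7 and Sorbs2, which all encode proteins that bind actin or attach to its filaments. Csrp1 stood at 1249 and 1117 CPM against 3620 and 2987, and Sorbs2 at 267 and 250 against 761 and 745. Desmin (Des) stood at 661 and 693 CPM against 1165 and 1060, short of the limit. Cald1 stood at 2234 and 2268 against 2495 and 2381. The list's median log2 ratio was -0.73. The 12 lowest genes also held Igfbp4, which binds insulin-like growth factors (129 and 75.6 CPM against 716 and 423), Tgfb3, Wfdc1, Plekho1 and the immediate early gene Fos (43.0 and 58.8 against 170 and 200). Ptgds, prostaglandin D synthase, stood at 50.4 CPM in the Mr1+/+ and 372 in the Mr1-/- library, against 689 and 616.

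Genes for calcium, receptors and Notch differed in a few members. Over all 3207 measured genes, 2.56% were past 2-fold higher in both libraries and 0.811% lower. Of 15 measured calcium genes, Atp2a3, Casq2 and Ano1 were past 2-fold higher and none was lower. Casq2 stood at 209 and 248 CPM against 39.1 and 47.6 in contractile cells. Of 7 vasoactive receptors, Adora2a, an adenosine receptor that raises cAMP (123 and 118 CPM against 40.5 and 49.4), and Tbxa2r (148 and 166 against 51.9 and 54.0) were past 2-fold higher. Ednra, the endothelin receptor, stood at 181 and 208 CPM against 124 and 124. Of 8 Notch genes only Nrarp, a feedback inhibitor that Notch itself induces, was past 2-fold, at 245 and 340 CPM against 104 and 163. Notch3 stood at 736 and 781 against 495 and 447. Rgs5 was past 2-fold too, at 2135 and 2026 CPM against 656 and 754. None of 11 measured smooth muscle transcription factors and none of 6 potassium channel genes was past the limit, which is near the shares over all genes.

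Against pericyte-like cells, 184 of 3674 measured genes (5.01%) were more than 2-fold higher in Cnn1-low cells in both libraries and 185 (5.04%) were more than 2-fold lower. Without the cells of clusters 7 to 12 these counts were 208 and 223. Among the higher genes were 11 of 16 measured genes of the contractile apparatus that no rule used, and none of the 16 was lower. Pdlim3, a Z-line and stress fibre protein, stood at 411 and 481 CPM against 0.926 and 1.89. Sorbs2 stood at 267 and 250 against 3.70 and 0.943. Cav1, the main protein of caveolae, stood at 377 and 447 CPM against 8.33 and 10.4, as high as in contractile cells (379 and 321). Crip1, a small LIM protein, stood at 8167 and 9525 against 444 and 556, and vimentin (Vim) at 2458 and 3051 against 212 and 165. The potassium channel genes Kcna5 (99.0 and 103 CPM against 1.85 and no UMI) and Kcnk3 were higher, as were Npy1r, the neuropeptide Y receptor, and Ramp1.

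The lower genes were led by Spp1, Sfrp2, Slc6a13, Nodal and Uchl1. Spp1, osteopontin, had 6 UMIs in Mr1+/+ and none in Mr1-/- Cnn1-low cells, against 894 and 751 CPM in pericyte-like cells. Nodal, a TGF-beta family ligand, stood at 24.3 and 14.7 CPM against 406 and 436. Ptn, although above contractile cells, stood at 956 and 664 against 7528 and 7982. The pericyte genes Anpep, Slc6a20a, Slc19a1, Art3, Ggt1 and Gper1, 6 of 11 measured that no rule used, were past 2-fold lower in both libraries. The share over all 3674 measured genes was 5.04%. The transcription factor genes Foxf2 and Zic1, the Notch target Hes1, and Tbxa2r and S1pr3 among the receptors were lower too. Of 3484 genes measured over the 3 kinds, 1674 (48.0%) lay between contractile and pericyte-like cells in both libraries.

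Few genes lay more than 1.5-fold outside the range of the other kinds of cell. In both libraries, 13 of the 3484 genes (0.373%) were more than 1.5-fold above both. Among them were Nnat, Mt3, Dbi, Lurap1l, Bcas3, Nrarp, Tmem100, Arvcf, Amotl1, Aig1, Ano1 and Fry. Nnat, Mt3, Dbi, Arvcf and Aig1 were highest in ependymal cells of these libraries (5185 CPM of Nnat), and 5 Cnn1-low cells lay in cluster 12, which ependymal genes lead. The part of those cells in the result was not tested. Bcas3, a protein of endothelial migration, stood at 183 and 199 CPM against 71.1 and 105 in contractile and 43.5 and 38.7 in pericyte-like cells. Lurap1l, Bcas3, Nrarp, Amotl1, Ano1 and Fry were highest in Cnn1-low cells among all kinds compared, and Tmem100 in oligodendrocyte precursors (1007 CPM). Nrarp stood at 245 and 340 CPM against 133 and 198 in pericyte-like cells, and Ano1 at 271 and 325 against 175 and 190. The 2 genes below both kinds were Svil, supervillin, and Ptgds. Both were highest in fibroblasts, Ptgds at 73026 CPM. Ptgds also differed between the libraries, at 50.4 and 372 CPM in Cnn1-low and 3453 and 588 in pericyte-like cells.

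Between the genotypes, 83 of 3443 measured genes (2.41%) were more than 1.5-fold higher and 199 (5.78%) more than 1.5-fold lower in the Mr1-/- Cnn1-low cells, after 10 CPM were added. These are ratios between 2 libraries, not a test of genotype. The RNA of other cell types in the cells also differed between the libraries. The 8 microglial markers, all with UMIs, summed to 809 CPM in Mr1+/+ and 3139 in Mr1-/- Cnn1-low cells, the 8 oligodendrocyte markers to 2263 and 605, and the 8 endothelial markers, of which Pecam1 was at 0, to 497 and 157. The 8 astrocyte markers were closer, at 2777 and 2600. Microglial sums were also higher in Mr1-/- contractile (162 and 677 CPM) and pericyte-like cells (1253 and 2559). Oligodendrocyte sums were lower there too (1374 and 751, 3504 and 1718), as were endothelial sums. With clusters 7 to 12 left out, 80 genes were higher and 176 lower, but only 36 and 101 of them were the same genes. Mr1 had 2 UMIs in Mr1+/+ and none in Mr1-/- Cnn1-low cells, too few for a ratio.

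Genes below 0.2 times the CPM of the kind of cell where they are highest were not ranked. The highest ratios among the others belonged to genes with few UMIs. Loxl2, a lysyl oxidase that crosslinks collagen, had 16 UMIs in 14 Mr1+/+ cells and 38 UMIs in 29 Mr1-/- cells, a ratio of 2.67 (interval 1.45 to 5.13). It was also higher in contractile (17.8 and 42.1 CPM) and pericyte-like cells (3.70 and 14.1 CPM). Olfml2a had 35 UMIs in 27 cells and 68 UMIs in 44 cells, a ratio of 2.18 (1.43 to 3.38). Pcdh1, a protocadherin, had 32 and 58 UMIs, a ratio of 2.04 (1.30 to 3.24), and Kcns3, a modifier subunit of voltage-gated potassium channels, 18 and 34, a ratio of 2.12 (1.17 to 3.99). Galnt18, Mertk, Cabp1, Msrb1, Arhgef2, Eci2 and Krit1 completed the list with ratios of 1.86 to 2.43. Mertk was highest in microglia (328 CPM), whose markers differed between the libraries as given above. Its log2 ratio was 0.97, but 0.23 with cells thinned to 1500 UMIs and 0.59 without Scrublet doublets. Of the 12, Loxl2 alone was past 1.5-fold in the same direction in both other kinds.

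Pln had the most UMIs among the 12, 208 in 74 Mr1+/+ cells and 345 in 88 Mr1-/- cells. Its level was 388 and 724 CPM, a ratio of 1.86 (1.57 to 2.23). Contractile cells held 1003 and 1151 CPM. Pln is one of the 4 genes that the rule limits, and among Mr1-/- cells 98 of 155 had 1 of the 4, against 89 of 174 Mr1+/+ cells. In the cells of cluster 3 Pln stood at 676 and 1130 CPM and in those of cluster 5 at 64.2 and 241 CPM.

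The lowest ratios were led by Ccl19, a chemokine, with 134 UMIs in 5 Mr1+/+ cells and 3 UMIs in 1 Mr1-/- cell, so that 5 cells set its ratio of 0.0252 (0.00513 to 0.0752). With 10 CPM added its log2 ratio was -4.00, but 0 when cells with 2 or more pericyte genes were left out. Ccl19 is also a leading gene of cluster 6, and the part of that cluster in the ratio was not tested. Tsc22d3, the glucocorticoid-induced leucine zipper, had 191 UMIs in 82 cells and 73 UMIs in 50 cells, 357 and 153 CPM, a ratio of 0.430 (0.324 to 0.566). It was lower in contractile cells too (128 and 53.1 CPM) and in pericyte-like cells (347 and 202 CPM). Dnaja1, an Hsp40 cochaperone, had 214 and 96 UMIs, a ratio of 0.504 (0.392 to 0.645). Mat2a, which makes S-adenosylmethionine, had 102 and 42 UMIs, a ratio of 0.463 (0.315 to 0.669). Cp, the copper-binding ferroxidase ceruloplasmin, had 110 and 46 UMIs, a ratio of 0.470 (0.326 to 0.669). Txnip, a glucose-responsive inhibitor of thioredoxin, had 104 UMIs in 45 cells and 45 UMIs in 27 cells, a ratio of 0.487 (0.335 to 0.697). Stbd1, Eif2b4, Ttc14, Elf2, Prkar2b and Atrx had ratios of 0.394 to 0.482 on 54 to 110 UMIs over both libraries.

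**Figure D4:**
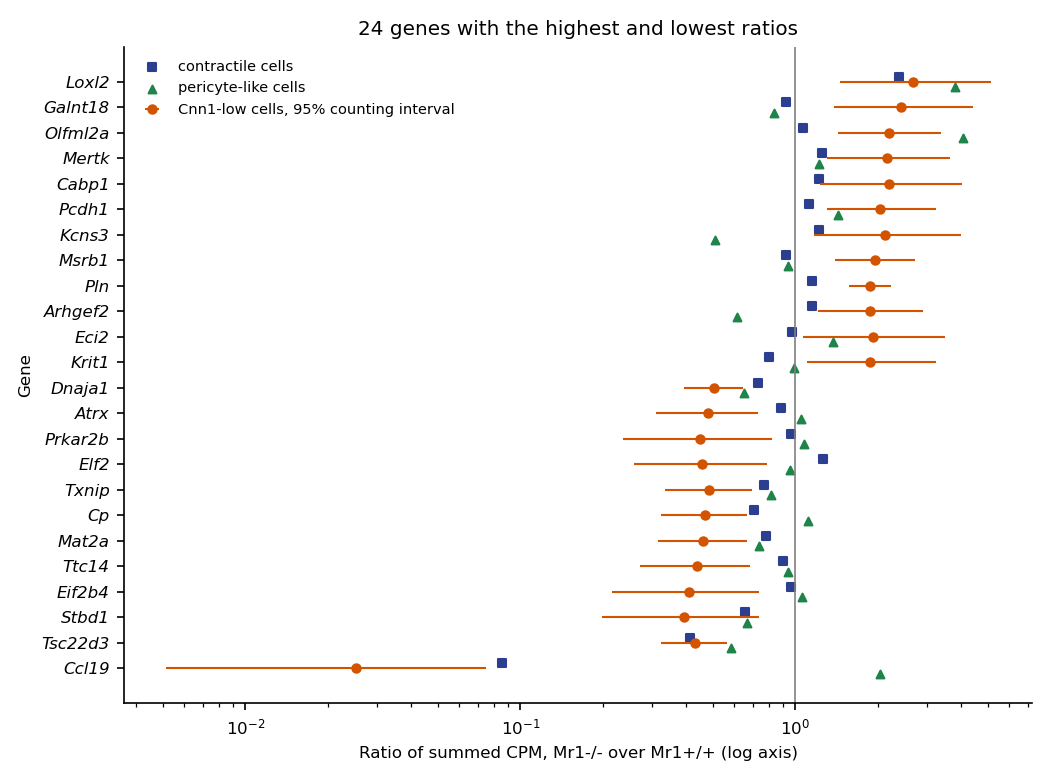
Ratio of summed CPM, Mr1-/- over Mr1+/+, on a log axis for the 12 highest and 12 lowest genes in Cnn1-low cells (orange, bars are 95% conditional binomial counting intervals), with the same ratio in contractile (blue squares) and pericyte-like cells (green triangles), without added CPM; Pln has no pericyte-like point because the Mr1+/+ level there is 0. Loxl2 and Tsc22d3 lie on the same side in all 3 kinds, as do others such as Olfml2a, Mertk, Mat2a and Dnaja1. Ccl19 (0.0252) lies far below the rest and rests on 5 cells.

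Described by gene list, heat shock genes were lower in the Mr1-/- library. Of 13 measured, 12 were lower and 4 of them past 1.5-fold: Hsp90aa1, Dnaja1, Dnajb1 and the mitochondrial chaperonin Hspd1. The list's median log2 ratio was -0.46, beside -0.01 over all 3443 genes, of which 51.6% were lower and 5.78% past 1.5-fold lower. Hsp90aa1, the inducible cytosolic Hsp90, stood at 665 and 328 CPM, Hsp90ab1 at 1785 and 1281, and the small heat shock protein Hspb1 at 1813 and 1317. Hspa1a, the stress-inducible Hsp70, stood at 112 and 111. The same list had medians of -0.14 in contractile cells and -0.34 in pericyte-like cells. Under the alternative settings its median in Cnn1-low cells ran from -0.46 to -0.28, and it was -0.34 without clusters 7 to 12.

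Of 11 measured genes that glucocorticoids induce, 7 were lower (63.6%, beside 51.6% of all genes), with a median of -0.53. Tsc22d3, Sgk1, Sult1a1 and Mt1 were past 1.5-fold (36.4%, beside 5.78%). Sgk1, a kinase that regulates ion channels, stood at 72.8 and 35.7 CPM, and Mt1, metallothionein 1, at 566 and 367. Ddit4, which the same hormone induces, stood at 69.1 and 77.7. The list's median was -0.25 in contractile and -0.39 in pericyte-like cells, and -0.08 when only Cnn1-low cells with none of Cnn1, Pln, Ptgis and Nexn were taken. Of 16 antioxidant genes 13 were lower (median -0.15), and Gstm1 was past the limit, 6.25% of the list beside 5.78% of all genes.

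Of the contractile apparatus, 15 of 22 measured genes were higher, with a median of 0.09 and none past 1.5-fold, but 6 of the 22 are genes of the rule. Of the 16 others 9 were higher, with a median of 0.04, beside 48.4% higher and a median of -0.01 over all 3443 genes. Myl6, a myosin light chain, stood at 5117 and 5743 CPM. In contractile cells all 16 were lower, with a median of -0.15. In Cnn1-low cells the median of the genes outside the rule was -0.08 when none of Cnn1, Pln, Ptgis and Nexn was allowed, -0.06 with 2 or more marker genes, -0.05 with each cell weighing the same and -0.02 in cluster 3 or without clusters 7 to 12, so its direction depends on which cells are taken. Of the pericyte list, 10 of 15 were lower (66.7%, beside 51.6% of all genes). Kcnj8, Atp13a5, Abcc9 and Slc6a20a were past 1.5-fold (26.7%, beside 5.78%). The list's median was -0.10, but 0.24 without cells of 2 or more pericyte genes and 0.03 in cluster 3. Kcnj8 stood at 189 and 90.3 CPM, but in pericyte-like cells at 2285 and 2105. Among Mr1+/+ cells 77 of 174 had 3 or more of the 6 pericyte genes, against 58 of 155 Mr1-/- cells, while 110 and 107 had 2 or more. The part of this difference in the list's ratios was not tested.

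The Notch list had a median of 0.18, with 7 of 8 measured genes higher, beside 48.4% of all 3443 genes. Without Nrip2, a gene of the rule, 6 of 7 were higher (median 0.22). Hes1, a transcriptional target of Notch, stood at 82.2 and 136 CPM, a ratio of 1.66 (1.12 to 2.49). It alone of the list was past 1.5-fold, beside 2.41% of all genes that were past it higher. Nrarp stood at 245 and 340 and Notch3 at 736 and 781. Without Nrip2 the medians were 0.17 in contractile and 0.25 in pericyte-like cells, 0.01 in the Cnn1-low cells of cluster 5 and -0.01 with no CPM minimum. Of 7 MHC class I genes, the class to which Mr1 is related, 3 were higher and 4 lower (57.1%, beside 51.6% of all genes). H2-K1 was past 1.5-fold lower at 116 and 69.3 CPM (14.3% of the list, beside 5.78%). Their median was -0.00064, -0.15 without clusters 7 to 12, -0.31 in cluster 3 and 0.47 in cluster 5. Of 7 interferon genes 5 were lower (71.4%, beside 51.6%), Bst2 and Ifitm1 past the limit (28.6%, beside 5.78%). Their median was -0.11, but 0.16 in cluster 3 and 0.09 when none of Cnn1, Pln, Ptgis and Nexn was allowed. Of 13 immediate early genes 8 were higher, beside 48.4% of all genes, but Klf2 (140 and 50.4 CPM) and Cebpd were past 1.5-fold lower (15.4%, beside 5.78%). Their median was 0.21, but -0.16 with cells thinned to 1500 UMIs and -0.61 in cluster 5.

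**Figure D5:**
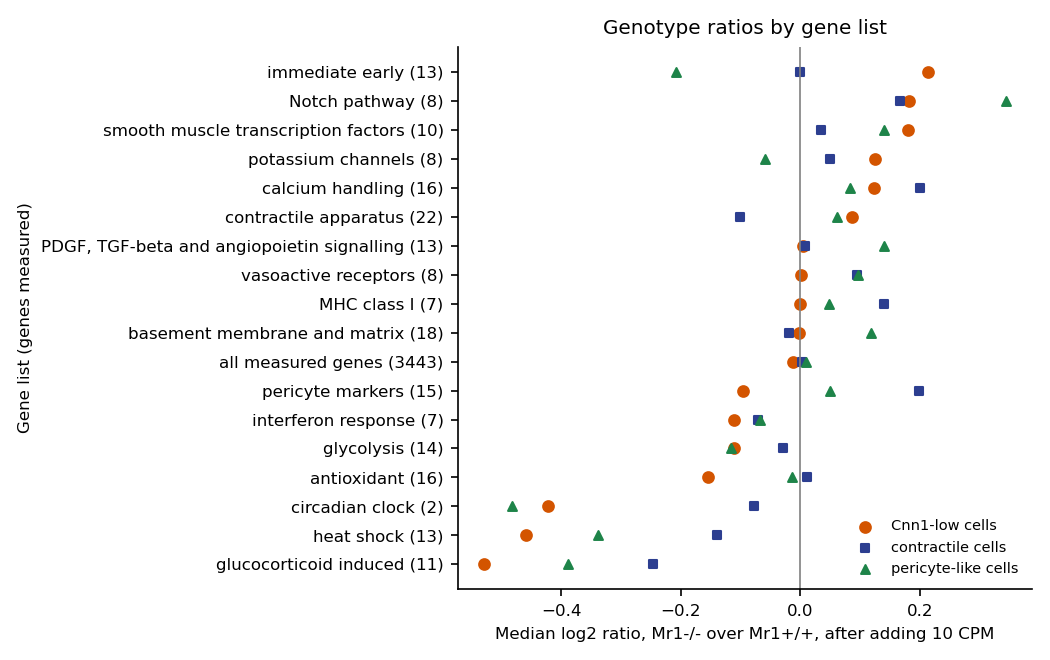
Median log2 ratio, Mr1-/- over Mr1+/+, after adding 10 CPM, for the gene lists shown and for all 3443 measured genes, in Cnn1-low (orange circles), contractile (blue squares) and pericyte-like cells (green triangles); the number of genes measured is in brackets, and there are no error bars because each library is 1 sample. The heat shock and glucocorticoid-induced lists lie lowest in Cnn1-low cells (-0.46 and -0.53) and below 0 in all 3 kinds.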

How the data were processed

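Each library's matrix, as deposited by the authors, holds unnormalised UMI counts of genes in cell barcodes. Cell Ranger 3.1.0 is named per the file headers, while Cell Ranger 5.1.0, STAR and mm10 are named per the submitters' processing notes; the version that made the matrices is therefore uncertain. The authors' own filters are not given in the sources used here. Cell annotation by the authors was not used.

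The cells, gene lists and markers were chosen with earlier results of these data known, and the members by their own transcripts. UMIs were summed per kind of cell and library and scaled to CPM. A gene was measured with 30 or more UMIs and a mean of 50 CPM, and 10 CPM were added before log2 ratios. Calls were 1.5-fold between genotypes and 2-fold in both libraries between kinds. Since each genotype is 1 library, nothing was tested and no p-value is given. Intervals are exact Poisson, Clopper-Pearson, conditional binomial or Newcombe intervals at 95%.

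Scrublet (expected rate 0.05) marked doublets in each library (5.29% and 3.24% of cells), which were kept in the main results. Mural cells were clustered with scanpy 1.11.5 and leidenalg 0.10.2 (2000 variable genes, 30 components, 15 neighbours, resolution 1, seed 7). Named genes were the 12 highest and 12 lowest ratios in each comparison, the genes of the rule, and up to 4 of each list with the most UMIs and the largest ratio each way. For genotype ratios, genes below 0.2 times the CPM of the kind where they are highest were not named. Xist, Tsix, Y chromosome, haemoglobin, ribosomal protein and mitochondrially encoded genes were not named either. Other genes of chromosome X were not left out, and Tsc22d3 and Atrx lie on it. The ratio code was tested on simulated data. Python 3.11.15, NumPy 2.4.6, SciPy 1.17.1 and pandas 2.3.3 were used. Gene positions are those of mm10. Some genes and 1 gene list are not reported here. Alternatives were other cell filters, scalings, pseudocounts, gene filters and choices of members, and resolutions 0.5 and 2.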

Additional observations from a re-analysis of the deposited data

Results flagged for a closer look

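Among the named genes and the genes of the lists, markers and rule, 4 had genotype ratios past 1.5-fold in opposite directions between kinds. The kinds were Cnn1-low cells and either contractile or pericyte-like cells. The rest of the 3443 measured genes were not searched, so 4 is no count over all genes. The differences between kinds were not tested. Ccl19 had a log2 ratio, Mr1-/- over Mr1+/+, of -4.00 in Cnn1-low cells and 0.75 in pericyte-like cells, and 5 cells held all of its 134 Mr1+/+ UMIs. Slc1a2, an astrocyte glutamate transporter, had 1.66 in Cnn1-low cells, where it had 12 UMIs in 8 Mr1+/+ and 44 UMIs in 3 Mr1-/- cells, -0.68 in contractile cells and -1.71 in pericyte-like cells. Olig1, a gene of the oligodendrocyte lineage, had 0.96 in Cnn1-low cells, with 20 UMIs in 6 and 39 UMIs in 3 cells, and -0.99 in pericyte-like cells. Slc6a20a had -0.59 in Cnn1-low cells and 0.81 in contractile cells, where its levels were 3.55 and 13.7 CPM.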

How the results depend on the processing

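No paired analysis was possible because each genotype is 1 library. Of 312 recomputed ratios of the 24 named genes, 282 stayed within the counting interval, 25 moved outside it and 5 changed sign: Stbd1 (0.33 without cells of 2 or more pericyte genes, 1.47 in cluster 5), Olfml2a (-0.46), Kcns3 (-0.085) and Txnip (0.29), the last 3 in cluster 5. Of 253 recomputed medians of 18 gene lists, 82 moved by more than 0.1 and 55 changed sign, in 15 lists; those of the heat shock, glucocorticoid-induced and antioxidant lists did not change sign. The results given for cluster 3, for cluster 5, without clusters 7 to 12 and for lists without genes of the rule were added after seeing the data. The share of cells was, in Mr1+/+ and Mr1-/-, 3.95% and 4.91% thinned before the rule, 1.34% and 1.08% with none of Cnn1, Pln, Ptgis and Nexn, 2.07% and 2.44% with 2 or more marker genes, and 16.4% and 14.9% of mural cells. In Mr1-/- it was 2.15% with at most 5% mitochondrial UMIs. The difference was 0.96 points thinned and -1.51 points of mural cells. Genes 1.5-fold higher numbered 130 with each cell weighing the same, 130 thinned, 172 with at most 5% mitochondrial UMIs, 158 with none of the 4 limited genes, 149 without cells of 2 or more pericyte genes and 130 in cluster 3. With 10 UMIs and no CPM minimum 537 were higher and 1064 lower, with 50 CPM added 40 and 66, and in cluster 5 110 were lower. Median of ratios scaling gave 93 higher and 171 lower, and calls that were higher made up 35.2% of all calls there, 48.1% in cluster 5 and 28.7% without Scrublet doublets. Lists with a median above that of all genes numbered 11, but 6 thinned and 6 in cluster 3. Against contractile cells, 42 genes were lower with median of ratios scaling, 236 higher and 50 lower with no CPM minimum, and 42 and 11 with 50 CPM added. Against pericyte-like cells, 405 were higher and 300 lower with no CPM minimum, and 114 lower with 50 CPM added. The largest cluster held 58.4% of the cells at resolution 0.5 and 34.7% at 2. The causes were not tested.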
